A study of Homo sapiens with 6 samples.

Results

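The Wnt pathway was described through 45 named genes for its ligands, receptors and regulators, of which 44 were found by symbol among the 26819 genes of the expression table. LGR5 was not analysed here. RNA was sequenced from C4-2, an established human prostate cancer line that was derived from LNCaP and grows without androgen. All libraries come from cells that carry Tet-O-YAP5SA, a transgene that doxycycline switches on and that encodes YAP1, a transcriptional coactivator, in a form the LATS kinases cannot switch off. The 3 Ctrl libraries are from cells without doxycycline and the 3 Dox libraries from cells given it for 24 hours, at a labelled dose of 0.2 mg/ml, the unit of which is printed as labelled and was not checked. The labels do not say whether the line is a single clone, nor whether the replicates are separate cultures. The p-values therefore set the difference between the groups only against the spread of these libraries, and that spread may be technical. Transgene-free cells given doxycycline are not among the samples, and effects of the drug and of the transgene cannot be told apart.

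Wnt ligands are secreted, lipid-modified proteins that bind Frizzled receptors together with the co-receptors LRP5 and LRP6. In their absence a destruction complex of AXIN, APC, GSK3 and the casein kinase CSNK1A1 marks beta-catenin for removal, and when a ligand is bound Dishevelled proteins recruit the complex to the receptor, so that beta-catenin can accumulate and act with TCF/LEF factors on target genes. Several targets feed back on the pathway, among them AXIN2, NKD1, RNF43, ZNRF3 and DKK1. In the prostate the pathway takes part in the growth of the gland, and some of its ligands act through Frizzled without beta-catenin.

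Levels are in TPM, a read count per unit of gene length set to a common sum per library, and can be compared between genes. The whole reads behind the values, recovered as described under processing, came to between 24960742 and 29261887 per library. The YAP1 level rose 4.74-fold, from 56.8 ± 3.72 to 269 ± 6.92 TPM (SD, n = 3). In it, reads of the transgene and of the cell's own gene cannot be told apart. The YAP1 target CTGF (CCN2), a secreted matricellular protein, rose from 0.350 ± 0.140 to 398 ± 13.1 TPM. All 8 luminal prostate markers were present, at 21.5 TPM or more in every library. Their summed level was 6229 to 6315 TPM in Ctrl and 5199 to 5281 TPM in Dox. Of 11 markers of basal, stromal, endothelial and immune cells 9 were measured, and none reached 1 TPM in any library. Their summed level was 0.254 to 0.414 TPM in Ctrl and 0.681 to 0.757 TPM in Dox, with CD3E at 0 in all Ctrl libraries. The difference lay in the endothelial marker CDH5, at 0.00658 and 0.469 TPM on 1 and 69 reads. Without CDH5 the sums were 0.254 to 0.395 TPM in Ctrl and 0.114 to 0.376 TPM in Dox.

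With active YAP1 the Wnt genes did not move in 1 direction. The ligand WNT7B rose 7.53-fold and the receptors FZD5 and FZD6 rose 3.96-fold and 2.62-fold, while WNT10A, RNF43 and KREMEN2 fell. In the pairs RNF43 and ZNRF3, KREMEN1 and KREMEN2, and DVL1 and DVL3, 1 gene rose and the other fell. In LRP5 and LRP6, GSK3A and GSK3B, AXIN1 and AXIN2, NKD1 and NKD2, and WNT10A and WNT10B only 1 gene was called. The pairs were not set in advance, and how often relatives part in this way among all genes was not tested. Of the 45 genes, 39 reached 1 TPM in 3 or more libraries and entered the test, and 5 were below that limit. By limma on log2(TPM + 1), at a Benjamini-Hochberg adjusted p under 0.05 over all 14833 tested genes, 19 of the 39 rose, 8 fell and 12 did not pass. That is 69.2% called, where 53.7% of all tested genes were called. The members and the lists below were chosen with earlier results of these data known, so shares set beside those of all genes are descriptive only. Rises made up 48.7% of the 39 (35.9% of all tested genes) and falls 20.5% (17.8% of all). Calls with a log2 fold change of 1 or more in either direction numbered 5 among the 39, all upwards. That is a share of 12.8% against 4.89% of all tested genes. The scale of log2(TPM + 1) understates changes of low genes. WNT10A (2.83-fold lower in mean TPM), WNT5A (2.31-fold higher) and TCF7L1 (2.29-fold higher) stayed below 1 on it. The 2 groups were fully separated for 30 of the 39, or 76.9%, against 61.9% of all tested genes. The median log2 fold change was 0.20 for the 39 and 0.10 for all tested genes, and the median size was 0.39 and 0.23. WNT10A passed the limit of 1 TPM through its Ctrl libraries only. FZD8 reached it in every Dox library but, among the Ctrl libraries, only in Ctrl 2.

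The split between rises and falls moved with the scaling between libraries. Median-ratio rescaling, which shifts the median of all tested genes by -0.10 on the log2 scale, gave 16 higher and 11 lower members. Quantile normalization, which shifts it by -0.13, gave 15 and 14. Rises were then 59.3% and 51.7% of the members' calls, where they were 49.4% and 44.9% of the calls over all tested genes. As deposited, rises were 70.4% of the members' calls and 66.8% of those over all tested genes. Of the 27 called members, 22 kept their call and direction in each alternative in which they were tested, and none turned its direction. AXIN2, APC, GSK3A, LEF1 and WLS lost the call in at least 1 alternative.

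**Figure D1:**
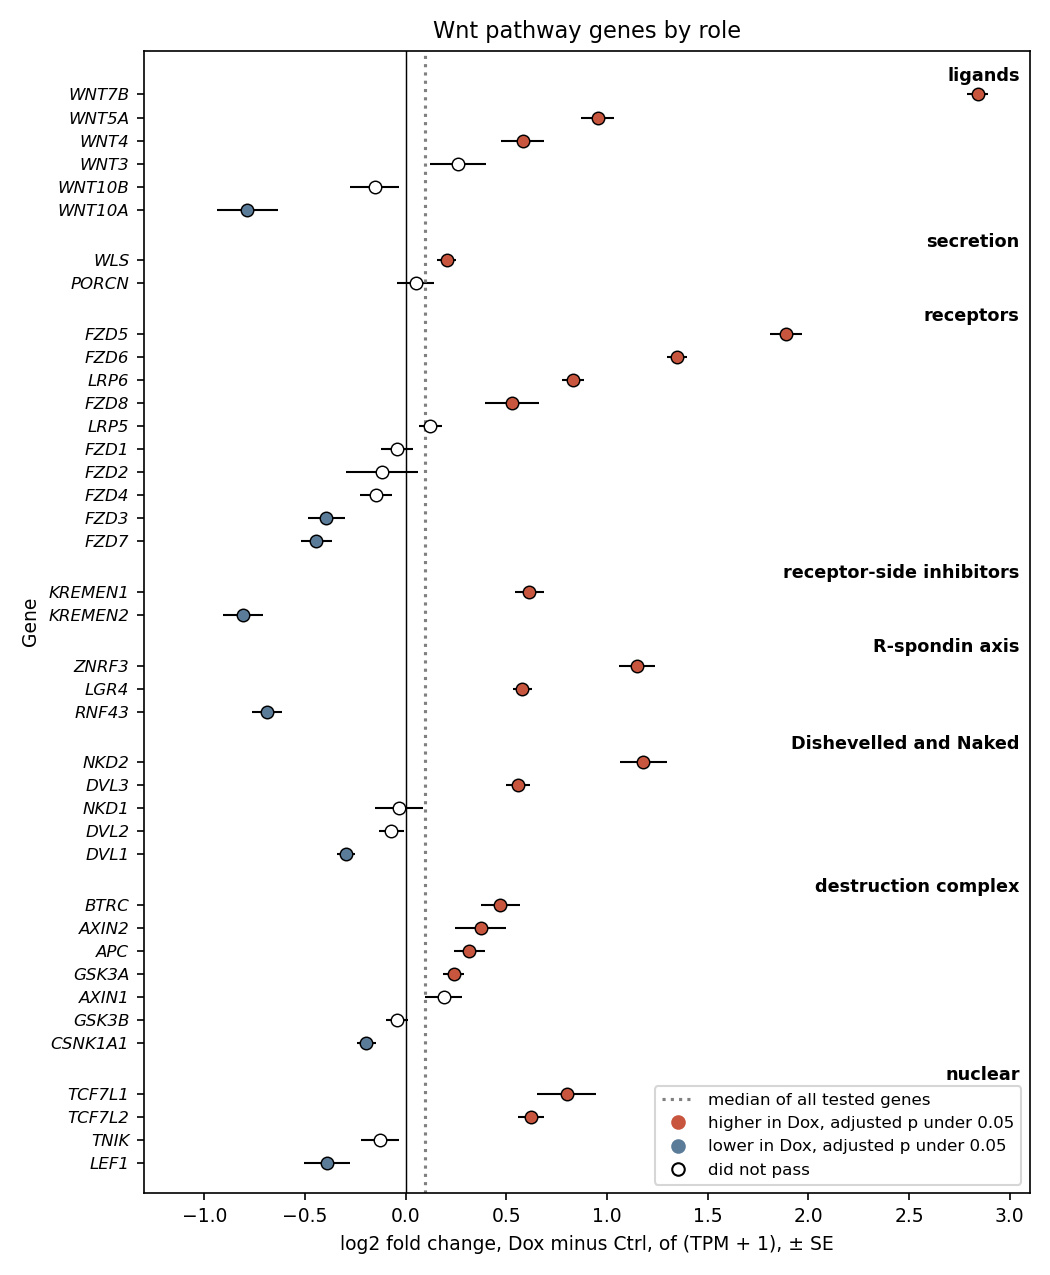
The log2 fold change (Dox minus Ctrl, of TPM + 1) with its SE from limma is plotted for the 39 tested Wnt pathway genes, grouped by role, with filled points for adjusted p under 0.05 and a dotted line at the median of all tested genes (0.10). WNT7B (2.84), FZD5 (1.89) and FZD6 (1.35) stand farthest to the right, and the largest falls on this scale are those of KREMEN2 (-0.81) and WNT10A (-0.79). In mean TPM, KREMEN2 fell 1.81-fold and WNT10A, a low gene that this scale understates, 2.83-fold. WNT10A entered the test through its Ctrl libraries only.

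Among the ligands, WNT7B (ENSG00000188064.5), which acts in epithelial and vascular development, was at 15.9, 17.9 and 17.0 TPM in Ctrl 1 to 3 and at 123, 133 and 127 TPM in Dox 1 to 3. The groups were far apart, and limma gave a log2 fold change of 2.84 with an SE of 0.05 and an adjusted p of 3e-08. These values rest on 2214 reads in Ctrl and 15862 in Dox. In bulk RNA, more RNA per cell and more cells that express a gene cannot be told apart, here or for the genes that follow. WNT5A (ENSG00000114251.9), a ligand best known for signalling without beta-catenin, was at 2.495, 2.39 and 2.60 TPM in Ctrl and at 5.60, 6.16 and 5.55 TPM in Dox. Its libraries did not overlap, and it rose by 0.95 ± 0.08 on the log2 scale (adjusted p = 4.8e-05). WNT4, which guides development of the reproductive tract, rose from 1.07 ± 0.0599 to 2.11 ± 0.188 TPM, a level that stays low in both groups.

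WNT10A (ENSG00000135925.4), a ligand of skin and tooth development, fell. It was at 1.60, 1.84 and 1.97 TPM in Ctrl and at 0.861, 0.354 and 0.700 TPM in Dox, a 2.83-fold lower mean (limma log2 fold change -0.79 ± 0.15, adjusted p = 0.0032). The fall rests on 159 reads in Ctrl and 53 in Dox, and Dox 2 was the lowest library. All Dox values were under 1 TPM, so WNT10A entered the test through its Ctrl libraries only. With no filter on low values, limma gave an adjusted p of 0.0084. WNT10B, its neighbour in the family, was at 10.2, 13.9 and 11.4 TPM in Ctrl and at 9.04, 11.6 and 10.9 TPM in Dox, with overlapping groups and adjusted p = 0.32 by limma. Its log2 difference had a 95% interval of -0.44 to 0.13, and it was called lower after quantile normalization (-0.33) and by voom on recovered reads (-0.27). WNT3 was at 0.960 ± 0.275 and 1.33 ± 0.0545 TPM and did not pass (adjusted p = 0.15).

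WNT5B and WNT11 were close to absent. WNT5B had 1 read over the 3 Ctrl libraries and 8 over the 3 Dox libraries, and WNT11 had 6 and 2, all too few for a test at the filter used. By level, the 6 tested ligands among the members followed in Dox the order WNT7B, WNT10B, WNT5A, WNT4, WNT3, WNT10A, and in Ctrl WNT7B, WNT10B, WNT5A, WNT10A, WNT4, WNT3. In Ctrl WNT4 and WNT3 overlapped, with WNT3 at 0.643 to 1.14 TPM and WNT4 at 1.01 to 1.13 TPM.

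The summed level of the 8 member ligands went from 35.2 ± 3.02 to 148 ± 6.69 TPM, and its make-up changed with it. The sum leaves out WNT9A, which is not a member and was at 3.82 ± 0.232 TPM in Ctrl and 11.2 ± 1.09 TPM in Dox. WNT7B made up 49.5%, 46.7% and 48.4% of the sum in Ctrl 1 to 3 and 86.7%, 85.8% and 86.1% in Dox 1 to 3. WNT10B made up 33.5% ± 2.44 in Ctrl and 7.07% ± 0.595 in Dox. WNT5A held 7.12% ± 0.782 and 3.89% ± 0.127 although its own level rose. These shares, taken within a library, do not depend on the scaling between libraries. The genes that prepare ligands for release differed less. PORCN, the enzyme that attaches the lipid, was at 10.9 ± 0.676 and 11.3 ± 1.42 TPM (limma adjusted p = 0.67). WLS, the carrier that takes ligands to the surface, was at 17.0, 16.8 and 17.5 TPM in Ctrl and at 20.6, 19.6 and 19.4 TPM in Dox. The groups did not overlap, and it rose by 0.20 ± 0.05 on the log2 scale (adjusted p = 0.0086). That call is lost after median-ratio rescaling (adjusted p = 0.13), after quantile normalization (0.45) and by voom on recovered reads (0.13).

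**Figure D2:**
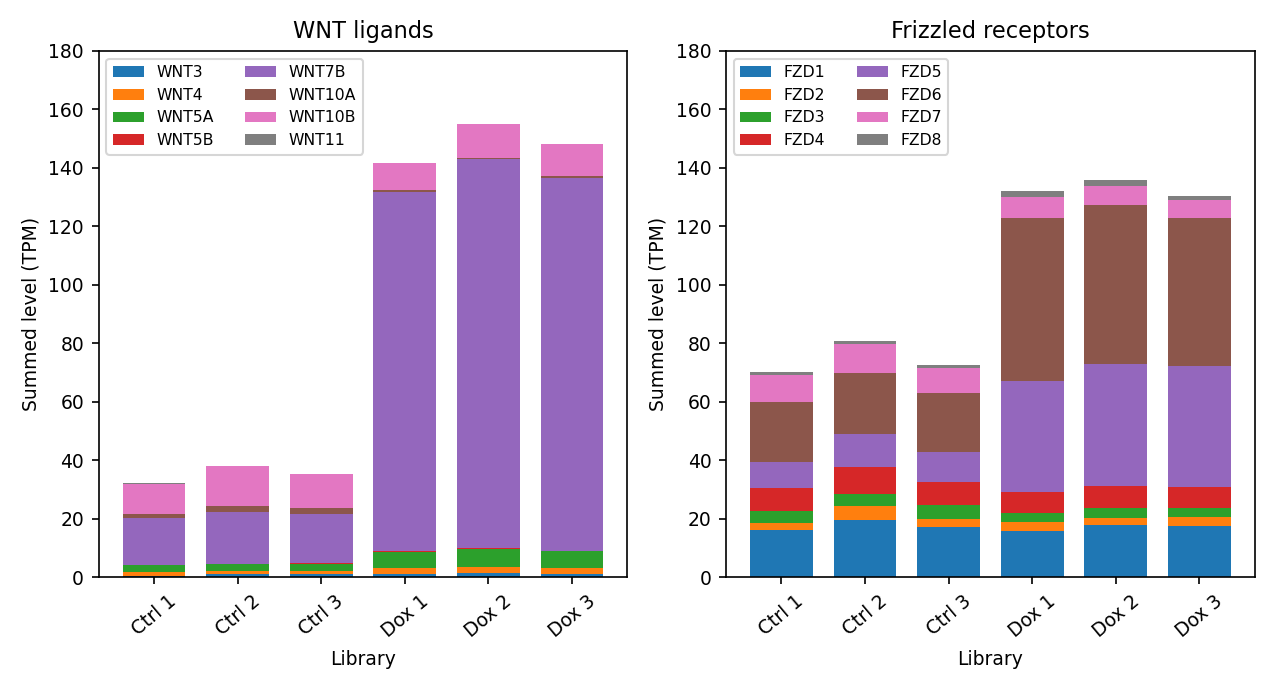
Stacked bars give the summed level in TPM of the 8 member WNT ligands (left, without WNT9A) and the 8 member Frizzled receptors (right) in each of the 6 libraries. Each gene has 1 colour. WNT7B fills most of the ligand bar in Dox (86.2% on average, 48.2% in Ctrl), and FZD5 and FZD6 account for the added height of the Frizzled bars.

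Frizzled receptors were divided: 3 rose, 2 fell and 3 did not pass. Over all tested genes 35.9% rose and 17.8% fell. With LRP5 and LRP6 included, 60.0% of the 10 receptors were called, near the 53.7% of all tested genes. FZD5 (ENSG00000163251.3) was at 9.03, 11.3 and 10.2 TPM in Ctrl and at 38.0, 41.6 and 41.3 TPM in Dox. It rose 3.96-fold, with no overlap between the groups (limma log2 fold change 1.89 ± 0.08, adjusted p = 1.3e-06). FZD6 (ENSG00000164930.7), a receptor of planar cell polarity, was at 20.4, 20.8 and 20.1 TPM in Ctrl and at 55.8, 54.5 and 50.5 TPM in Dox. It was the most abundant Frizzled in both groups and rose by 1.35 ± 0.05 on the log2 scale (adjusted p = 5.5e-07). FZD8 rose from 0.947 ± 0.115 to 1.82 ± 0.368 TPM, a difference that rests on 78 and 142 reads. Its Ctrl libraries were at 0.875, 1.08 and 0.886 TPM, so FZD8 met the limit of the test through its Dox libraries. The call held in all 14 alternatives that tested it, the fit with no filter among them. It shares 81 exonic bases with MIR4683 on the same strand, listed at 4.29 and 6.09 TPM.

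FZD7, known for its part in stem cells of epithelia, was at 9.33, 10.0 and 8.83 TPM in Ctrl and at 7.18, 6.46 and 6.29 TPM in Dox. All Dox libraries were below all Ctrl libraries (limma log2 fold change -0.44 ± 0.08, adjusted p = 0.0018). FZD3, a receptor of axon guidance, fell from 4.32 ± 0.325 to 3.05 ± 0.266 TPM (adjusted p = 0.0081). FZD1, FZD2 and FZD4 did not pass, at 17.7 ± 1.86 and 17.1 ± 0.990 TPM, 3.33 ± 1.07 and 2.93 ± 0.453 TPM, and 8.29 ± 0.810 and 7.36 ± 0.273 TPM. FZD4 was called lower after median-ratio rescaling (-0.25 on the log2 scale), after quantile normalization (-0.32) and by voom on recovered reads (-0.27), and FZD1 after quantile normalization (-0.20). In GENCODE 29, exons of FZD4 and PRSS23 overlap on opposite strands over 1399 bases, with PRSS23 at 0.731 TPM in Ctrl and 1.71 TPM in Dox.

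Summed over the 8 Frizzled genes, the level went from 74.6 ± 5.69 to 133 ± 2.86 TPM. FZD5 made up 13.6% ± 0.640 of the sum in Ctrl and 30.3% ± 1.43 in Dox, and FZD6 made up 27.5% ± 1.72 and 40.4% ± 1.81. FZD1, which in Ctrl was close behind FZD6 with 23.7% ± 0.699, made up 12.9% ± 0.682 in Dox. FZD5 and FZD7 were at nearly the same level in Ctrl, with FZD5/FZD7 ratios of 0.968, 1.13 and 1.15, and in Dox the ratios were 5.29, 6.44 and 6.56.

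The sequence before the FZD5 start is shown because FZD5 had the largest log2 fold change among the tested members with an entry in the RefSeq promoter table (GRCh38.p14), where 29 member genes had 40 listed starts. These are the 250 bases upstream of it, chr2:207769907-207770156 on the minus strand, 5′ to 3′.
FZD5: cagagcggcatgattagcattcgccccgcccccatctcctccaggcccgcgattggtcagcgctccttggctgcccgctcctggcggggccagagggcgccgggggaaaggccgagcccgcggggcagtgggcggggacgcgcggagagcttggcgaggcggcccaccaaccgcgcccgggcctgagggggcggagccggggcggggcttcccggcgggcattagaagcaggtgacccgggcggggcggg
The letters GGAATG, which TEAD factors (the DNA-binding partners of YAP1) recognise, those of TCF/LEF factors, namely CTTTGA, and those of AP-1, namely TGANTCA, were searched on both strands and are not in this window. GGAATG or its reverse complement was found in 4 of the 40 member windows (10.0%) and in 11.9% of all 35116 windows of the table. CTTTGA was in 2 of 40 (5.0%) and in 11.2% of all windows, and TGANTCA in 2 of 40 (5.0%) and in 6.57% of all.

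The co-receptors moved unequally. LRP6 (ENSG00000070018.4) was at 13.1, 13.7 and 13.1 TPM in Ctrl and at 23.4, 25.7 and 24.3 TPM in Dox. It rose 1.84-fold without overlap (limma log2 fold change 0.83 ± 0.05, adjusted p = 1.1e-05). LRP5 was at 31.6, 33.7 and 33.0 TPM in Ctrl and at 33.0, 36.7 and 37.6 TPM in Dox. Its groups overlapped, and the log2 difference had an interval of -0.01 to 0.26 (adjusted p = 0.11). Without Dox replicate 1 it was called higher (0.18, adjusted p = 0.023). LRP6 made up 28.9% ± 0.451 of the pair in Ctrl and 40.6% ± 1.18 in Dox.

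DKK1 and the Kremen proteins act against LRP6, DKK1 as a secreted antagonist and KREMEN1 and KREMEN2 as its surface partners. DKK1 (ENSG00000107984.5) was below the limit for the main test, at 0.0506, 0.0538 and 0 TPM in Ctrl and at 0.848, 1.15 and 0.618 TPM in Dox. In reads this was 1, 1 and 0 against 14, 21 and 12. Every Dox library was above every Ctrl library, and the ratio of summed reads per library read was 24.1, with an exact 95% interval of 6.30 to 205 that covers counting error only. With no filter on low values, limma gave a log2 fold change of 0.85 on the log2(TPM + 1) scale and an adjusted p of 0.0023. DKK1 shares 212 exonic bases with PRKG1-AS1 on the opposite strand. DKK3, a relative of uncertain action on the pathway, had 1 read in each group.

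The 250 bases before the DKK1 start are shown because they are the only member window with letters of both TEAD and TCF/LEF (GRCh38.p14, chr10:52314031-52314280, plus strand, 5′ to 3′). Capitals mark the letters of TEAD once and those of TCF/LEF once on each strand.
DKK1: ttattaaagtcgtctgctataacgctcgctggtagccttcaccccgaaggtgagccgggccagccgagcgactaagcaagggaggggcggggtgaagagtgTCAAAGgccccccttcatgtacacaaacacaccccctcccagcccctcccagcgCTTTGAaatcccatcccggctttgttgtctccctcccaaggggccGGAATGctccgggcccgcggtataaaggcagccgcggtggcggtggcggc

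KREMEN1 (ENSG00000183762.8) was at 15.1, 17.9 and 15.8 TPM in Ctrl and at 23.9, 26.0 and 26.3 TPM in Dox. It rose by 0.61 ± 0.07 on the log2 scale (limma adjusted p = 0.00026). KREMEN2 (ENSG00000131650.9) was at 23.4, 22.4 and 19.4 TPM in Ctrl and at 12.1, 10.5 and 13.4 TPM in Dox, and fell by 0.81 ± 0.10 (adjusted p = 0.00033). Neither gene's groups overlapped, and the order of the pair turned: KREMEN1 was at 0.643, 0.797 and 0.818 times the level of KREMEN2 in Ctrl and at 1.98, 2.47 and 1.97 times in Dox. The sum of the pair was 38.0 ± 2.60 TPM in Ctrl and 37.4 ± 2.03 TPM in Dox, with overlapping libraries. KREMEN2 shares 360 exonic bases with PKMYT1 on the opposite strand in GENCODE 29, and PKMYT1 was at 24.8 TPM in Ctrl and 27.2 TPM in Dox.

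RNF43 and ZNRF3 are related membrane ubiquitin ligases that remove Frizzled and LRP6 from the cell surface, and LGR4 is a receptor for R-spondins, which hold these ligases back. RNF43 (ENSG00000108375.8) was at 9.30, 10.7 and 9.59 TPM in Ctrl and at 5.50, 6.02 and 5.65 TPM in Dox. It fell 1.72-fold with no overlap (limma log2 fold change -0.69 ± 0.07, adjusted p = 0.00016). ZNRF3 (ENSG00000183579.11) was at 2.24, 2.74 and 2.65 TPM in Ctrl and at 7.27, 6.81 and 6.46 TPM in Dox. It rose 2.69-fold (log2 fold change 1.15 ± 0.09, adjusted p = 3.1e-05), also with no overlap.

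RNF43 was at 4.15, 3.89 and 3.62 times the level of ZNRF3 in Ctrl and at 0.757, 0.884 and 0.875 times in Dox, so ZNRF3 was the higher of the pair in each Dox library. The summed level of the pair was 12.4 ± 0.937 TPM in Ctrl and 12.6 ± 0.397 TPM in Dox, and the libraries overlapped. LGR4 was at 11.6, 11.8 and 11.9 TPM in Ctrl and at 18.0, 18.2 and 18.0 TPM in Dox. It rose by 0.58 ± 0.05 on the log2 scale (limma adjusted p = 3.8e-05), with little spread within either group. RNF43 shares 143 exonic bases with SUPT4H1 on the same strand, a gene at 142 and 146 TPM, and 4326 with AC004687.2 in GENCODE 29. AXIN2, CSNK1A1, APC and GSK3A share 1316, 2886, 230 and 479 exonic bases there with other genes on their strand. Whether reads in these stretches were counted is unknown, since the annotation used for the counts is not stated.

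RefSeq lists 2 starts for RNF43. The window of the downstream start is shown because RNF43 fell and the window holds 2 TEAD matches and 1 AP-1 match, whereas that of the upstream start holds none of the letters searched (GRCh38.p14, chr17:58402722-58402971, minus strand, 5′ to 3′). TEAD letters were also found for GSK3A (2 matches) and for APC and DKK1 (1 match each), and GSK3A and APC were called higher. Whether the letters have a part in any of these differences was not tested. Capitals mark the TEAD letters, here as the reverse complement CATTCC, and the AP-1 letters.
RNF43: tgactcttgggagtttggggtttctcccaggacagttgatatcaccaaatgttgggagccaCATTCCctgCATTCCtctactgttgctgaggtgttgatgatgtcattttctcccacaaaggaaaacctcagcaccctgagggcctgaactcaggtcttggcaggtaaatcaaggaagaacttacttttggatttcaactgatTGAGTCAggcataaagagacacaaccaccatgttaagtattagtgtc

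**Figure D3:**
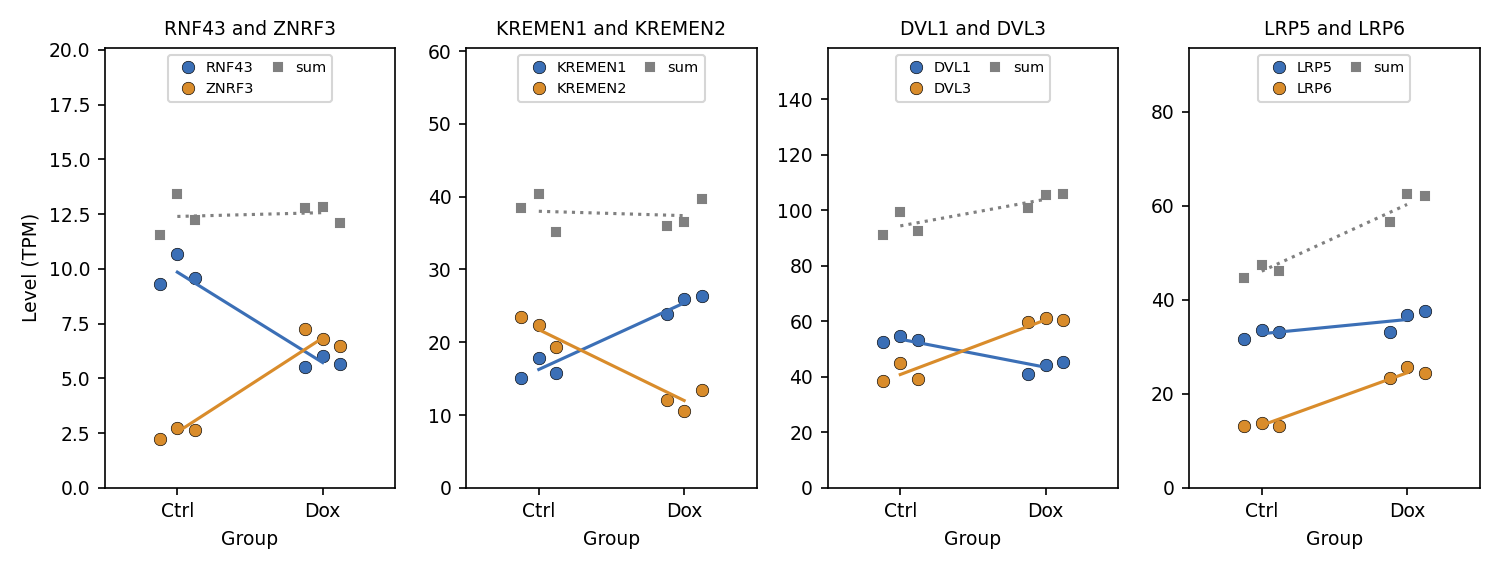
Levels in TPM in each library (circles) with lines joining the group means, and the sum of each pair (grey squares, dotted line), for 4 pairs of related genes in Ctrl and Dox. The lines of RNF43 and ZNRF3, of KREMEN1 and KREMEN2, and of DVL1 and DVL3 cross, while LRP6 rises towards LRP5, and the sums of the first 2 pairs overlap between Ctrl and Dox.

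Dishevelled proteins carry the signal from Frizzled to the destruction complex. DVL3 was at 38.5, 44.9 and 39.1 TPM in Ctrl and at 59.9, 61.2 and 60.5 TPM in Dox, and rose by 0.56 ± 0.06 on the log2 scale (limma adjusted p = 0.00016). DVL1 was at 52.6, 54.6 and 53.5 TPM in Ctrl and at 41.0, 44.2 and 45.2 TPM in Dox, and fell by 0.30 ± 0.05 (adjusted p = 0.0012). Each gene's groups were apart, and the DVL3/DVL1 ratio went from 0.762 ± 0.0521 to 1.40 ± 0.0622. DVL2 was at 37.6 ± 2.85 and 35.7 ± 1.40 TPM and did not pass, but it was called lower after median-ratio rescaling (-0.18), after quantile normalization (-0.21) and by voom on recovered reads (-0.18). The 3 genes together were at 132 ± 7.002 and 140 ± 3.98 TPM.

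The Naked proteins bind Dishevelled and dampen the pathway. NKD2 (ENSG00000145506.9) was at 2.11, 1.85 and 1.45 TPM in Ctrl and at 4.79, 5.66 and 5.55 TPM in Dox. It rose 2.96-fold on 141 and 396 reads (limma log2 fold change 1.18 ± 0.12, adjusted p = 0.00011). NKD1, which is itself a target of beta-catenin, was at 1.75, 2.05 and 1.60 TPM in Ctrl and at 1.96, 1.77 and 1.48 TPM in Dox. Its groups overlapped, and the log2 difference had an interval of -0.31 to 0.24.

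The destruction complex showed small differences, none with a log2 fold change above 0.47 in size. BTRC, which recognises marked beta-catenin for the ubiquitin ligase, was at 4.61, 5.84 and 5.86 TPM in Ctrl and at 8.18, 8.07 and 7.41 TPM in Dox (0.47 ± 0.10, limma adjusted p = 0.0045). APC, a scaffold of the complex, was at 5.94, 6.84 and 6.34 TPM in Ctrl and at 8.35, 8.59 and 7.58 TPM in Dox (0.32 ± 0.08, adjusted p = 0.010). Both rose without overlap, although the call of APC is lost after quantile normalization (0.14, adjusted p = 0.075). CSNK1A1, the priming kinase and the most abundant member of the complex, was at 159, 177 and 173 TPM in Ctrl and at 148, 153 and 143 TPM in Dox. It fell by 0.20 ± 0.05 on the log2 scale (limma adjusted p = 0.0099), with all Dox libraries below all Ctrl libraries.

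GSK3A and GSK3B encode near-equivalent kinases. GSK3A was at 37.1, 39.6 and 40.5 TPM in Ctrl and at 44.0, 46.1 and 48.7 TPM in Dox, and rose by 0.24 ± 0.05 (limma adjusted p = 0.0066), a call lost after median-ratio rescaling (adjusted p = 0.071) and quantile normalization (0.11). GSK3B was at 62.3 ± 3.58 and 60.4 ± 2.97 TPM and did not pass, but it was called lower after median-ratio rescaling (-0.16), after quantile normalization (-0.17) and by voom on recovered reads (-0.15). The GSK3A/GSK3B ratio, which is free of that scaling, was 0.629, 0.599 and 0.653 in Ctrl and 0.737, 0.723 and 0.840 in Dox. AXIN1, the limiting scaffold, was at 6.68 ± 0.824 and 7.73 ± 0.314 TPM (adjusted p = 0.12).

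Among the nuclear factors, TCF7L2 (ENSG00000148737.11) was at 5.59, 5.57 and 6.01 TPM in Ctrl and at 9.18, 9.57 and 9.30 TPM in Dox. It rose by 0.62 ± 0.06 on the log2 scale (limma adjusted p = 0.00012). TCF7L1, which mostly represses its targets, was at 1.14, 1.18 and 1.73 TPM in Ctrl and at 2.54, 3.61 and 3.12 TPM in Dox, and rose by 0.80 ± 0.15 (adjusted p = 0.0025). Neither overlapped between groups. LEF1, an activating member of the family, was at 1.56, 1.77 and 2.04 TPM in Ctrl and at 1.17, 1.08 and 1.12 TPM in Dox, and fell by 0.39 ± 0.11 (limma adjusted p = 0.021). Its call is lost without Ctrl replicate 3 (adjusted p = 0.083) or Dox replicate 2 (0.058). TCF7 stayed under the limit at 0.210 ± 0.0752 and 0.339 ± 0.0819 TPM, and 210 of its exonic bases overlap SKP1, a gene at 144 and 146 TPM, on the opposite strand. LEF1 made up 19.7% ± 1.28 of the summed level of these 4 factors in Ctrl and 8.12% ± 0.766 in Dox. TNIK, a kinase that binds TCF7L2, was at 3.05 ± 0.318 and 2.70 ± 0.102 TPM and did not pass. It was called lower after quantile normalization (-0.28) and by voom on recovered reads (-0.28).

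**Figure D4:**
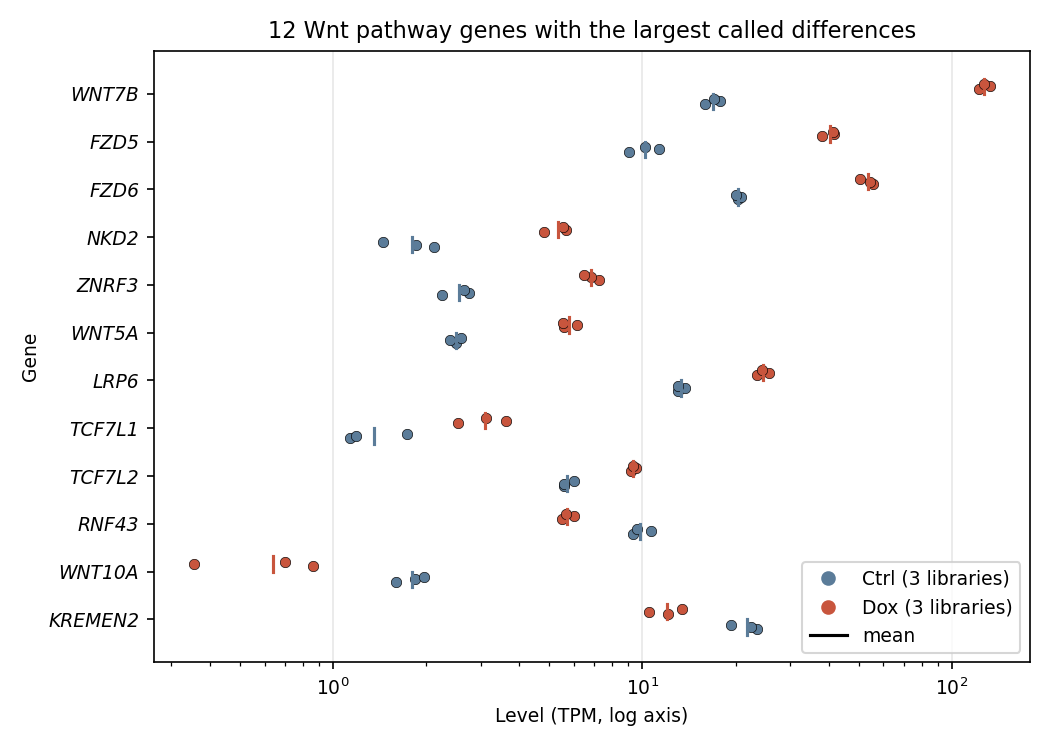
Levels in TPM on a log axis in the 3 Ctrl and 3 Dox libraries for the 12 Wnt pathway genes with the largest called differences, with vertical ticks at the group means. The 2 groups do not overlap for any of the 12, and the widest spread within a group is that of WNT10A in Dox, from 0.354 to 0.861 TPM.

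The genes that beta-catenin raises as feedback on the pathway did not move together. Of 8 such genes, AXIN2, NKD1, RNF43, ZNRF3 and LEF1 were tested, DKK1 and TCF7 were under the limit and LGR5 was not analysed. ZNRF3 and AXIN2 rose, RNF43 and LEF1 fell, and NKD1 did not pass. That is 80.0% of the 5 called, where 53.7% of all tested genes were called, 35.9% as rises and 17.8% as falls. Whether so small a group differs from all genes was not tested. AXIN2, the member most used as a readout of the pathway, was at 2.79, 1.99 and 2.47 TPM in Ctrl and at 3.57, 3.79 and 2.89 TPM in Dox. The groups came close, and the log2 fold change of 0.37 ± 0.13 only just passed (limma adjusted p = 0.039). That call is lost in 8 of 14 alternatives, with adjusted p from 0.020 to 0.20 over all of them: after median-ratio rescaling (0.10), after quantile normalization (0.20), with no filter (0.099), with a replicate block (0.061), and without Ctrl replicate 2 (0.11), Ctrl replicate 3 (0.077), Dox replicate 1 (0.10) or Dox replicate 2 (0.12).

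A further list held 24 genes known as beta-catenin targets, none of them a member. Of 18 tested, 4 rose, 8 fell and 6 did not pass, with a median log2 fold change of -0.14 (0.10 for all tested genes). The rises were 22.2% and the falls 44.4% of those tested, where all tested genes had 35.9% and 17.8%. With median-ratio rescaling, and also with quantile normalization, 3 were higher and 10 lower, while 49.4% and 44.9% of the calls over all tested genes were then higher. CLDN1, a tight junction protein, rose from 0.157 ± 0.0486 to 7.94 ± 0.616 TPM, on 15 and 712 reads, and it alone of the 18 passed the limit of 1 TPM through 1 group only. MYC and CCND1, drivers of the cell cycle, rose 2.20-fold and 1.52-fold, and BAMBI, a decoy receptor of the TGF-beta family, 1.12-fold. The falls were led by VEGFA, a growth factor of blood vessels, from 42.1 ± 0.655 to 19.4 ± 2.13 TPM, SOX9 from 6.78 ± 0.680 to 3.23 ± 0.156 TPM, ASCL2, a factor of intestinal stem cells, from 14.5 ± 1.26 to 8.29 ± 0.844 TPM, and SOX4 from 39.4 ± 3.37 to 24.9 ± 1.44 TPM. All of these genes also answer to other pathways.

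Of 86 other genes of the pathway, 73 were measured and 50 tested, of which 26 rose, 4 fell and 20 did not pass. The share called was 60.0%, near the 53.7% of all tested genes. Rises were 52.0% and falls 8.0% of the 50, where all tested genes had 35.9% and 17.8%. Median-ratio rescaling gave 18 higher and 10 lower, and quantile normalization 15 and 10. Of the calls over all tested genes 49.4% and 44.9% were then higher. The ligand WNT9A rose most, from 3.82 ± 0.232 TPM, above WNT5A, to 11.2 ± 1.09 TPM, close to WNT10B (limma log2 fold change 1.34 ± 0.09, adjusted p = 1.1e-05). ROR1, a receptor of WNT5A, rose from 1.67 ± 0.0748 to 4.85 ± 0.209 TPM, the kinase NLK from 8.48 ± 0.585 to 16.5 ± 0.761 TPM, and PYGO1, a coactivator of beta-catenin, from 1.95 ± 0.292 to 3.56 ± 0.267 TPM. Those that fell were CCDC88C, which binds Dishevelled, from 11.7 ± 0.590 to 7.55 ± 0.736 TPM, the coactivator BCL9 from 22.1 ± 1.24 to 17.3 ± 1.19 TPM, the proteoglycan GPC3 from 41.3 ± 0.855 to 34.0 ± 1.34 TPM, and PPP2R5D, a phosphatase subunit, from 105 ± 1.09 to 96.6 ± 1.01 TPM. The transcript of beta-catenin itself, CTNNB1, named here after its values were seen, rose from 166 ± 9.52 to 226 ± 5.03 TPM (limma adjusted p = 0.00013).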

How the data were processed

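Levels in 6 libraries (TruSeq Stranded mRNA, per the labels' protocols) were measured by sequencing. Per the submitters' processing notes, FastQC 0.11.2, STAR 2.5.3a, hg19, featureCounts and edgeR were used, the last with no role given. The authors deposited 1 TPM value per gene and library, and for the annotation release and strand setting no statement is in the sources used. Members and lists were chosen with earlier results of these data known. Members were matched by symbol, first row where one repeats.

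The 14833 genes that reached 1 TPM in 3 or more libraries entered limma 3.58.1 (R 4.3.3) on log2(TPM + 1), with a mean-variance trend, two-sided, Benjamini-Hochberg adjustment over all of them and a threshold of 0.05. Fold changes on this scale understate those of low genes, and folds without "log2" are ratios of mean TPM. Errors beside log2 values are SE and beside TPM or percent values SD (n = 3).

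TPM values were turned into whole reads with GENCODE 29 exon lengths (9115 tested genes) or, for 5718, the smallest length that gave whole reads in all 6 libraries, with a tolerance of 0.01 reads plus a rounding allowance for high counts. Reads that share a divisor would come out too low. The chi-square per gene between libraries of a group was 2.38 to 4.49, above counting error, so none were counted as 1. On 1 kb, 3 reads correspond to 0.335 to 0.401 TPM.

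Genes printed with every library are the 12 called members with the largest log2 changes, those called in a role with no other such member, and others added after their values were seen. Of the other lists, up to 4 called genes per direction with the largest changes are named, besides 1 exception. Promoter sequences are RefSeq's. The alternatives tried were a pseudocount of 0.1, testing all genes, testing only genes with a mean of 5 TPM or more, rescaling by median ratio, quantile normalization, leaving out mitochondrially encoded genes, a replicate block, a fit without the variance trend, leaving out each library, and limma voom on recovered reads with TMM scaling. The fitting was tested on simulated data.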

Additional observations from a re-analysis of the deposited data

How the results depend on the processing

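Of 27 called members, 22 kept direction and call in every alternative in which they were tested. The count of called members ranged from 25 to 27 when 1 library was left out and was 17 with a mean of at least 5 TPM, which left 25 members to test. Under that filter 1 of 2 tested ligands, 1 of 1 tested nuclear factor and 1 of 1 tested feedback target were called. Over all genes, 6759 of the 10780 then tested were called. Of the secretion genes 0 were called after median-ratio rescaling, after quantile normalization and by voom on recovered reads, where the median of all genes shifts by -0.10, -0.13 and -0.09. In limma, WLS then had adjusted p of 0.13, 0.45 and 0.13. Of the 7 tested genes of the destruction complex 3 were called after quantile normalization, when 7884 of all 14833 tested genes were called. Of the 5 tested feedback targets between 2 and 4 were called when 1 library was left out, with 2 without Ctrl replicate 3 and 2 without Dox replicate 2. Between 6752 and 7589 of all 14833 tested genes were called in those fits. Members that did not pass and changed sign were FZD1 (-0.10 to 0.036 when 1 library was left out, above 0 without Ctrl replicate 2 and, at 0.0041, without Dox replicate 1), FZD2 (-0.25 to 0.075, above 0 without Ctrl replicate 2), LRP5 (-0.022 after quantile normalization), NKD1 (-0.093 to 0.034, above 0 without Ctrl replicate 2 or Dox replicate 3) and PORCN (-0.054 after median-ratio rescaling, -0.12 after quantile normalization, -0.048 by voom, and -0.040 to 0.12 when 1 library was left out, below 0 without Dox replicate 2). With the cause not tested, median-ratio rescaling gave 49.4% and quantile normalization 44.9% of all called genes as higher (66.8% as deposited). The replicate block gave 26 called members, with AXIN2 losing its call. Same-numbered libraries showed little shared deviation (correlations of -0.0085, 0.063 and 0.0035), and only the libraries numbered 2 correlated best with each other. Whether same-numbered libraries were grown or prepared together cannot be told from these values. Cores shorter by 1 letter were in 11 (TEAD), 10 (TCF/LEF) and 10 (AP-1) of the 40 member windows, and cores longer by 1 letter in 1, 0 and 1. Depth limits DKK1, WNT5B, WNT11, DKK3 and TCF7, which had at most 84 reads in either group.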
